A study of Mus musculus with 2 samples.

Results

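The cytochrome P450 family of the mouse was described in embryonic liver. Members were the protein-coding genes whose symbol is Cyp followed by a family number, a subfamily letter and a gene number, together with Cyp51, and pseudogenes were left out. This rule gave 95 genes in 17 families and 40 subfamilies, of 43346 genes in the deposited gene tables, of which 21474 were protein-coding. A further 5 protein-coding P450 genes with an extra letter in their symbol (Cyp3a41a, Cyp3a41b, Cyp4a12a, Cyp4a12b and Cyp4a30b) fell outside it, and none of them exceeded 0.03 TPM in either library.

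The study measured polyadenylated RNA over 200 nucleotides long from whole liver of C57BL/6J mouse embryos at day 14.5. Male and female littermates were pooled, and ribosomal RNA was depleted. There was 1 group, with 2 biological replicates, each sequenced as a stranded PE101 library (paired ends). The labels name no treatment or altered allele, and no other stage or tissue was analysed here. No source used here says whether the replicates came from separate litters, and both carry the same donor label. Every p-value below therefore compares these 2 libraries only. Those printed for single genes weigh a difference against sampling noise and include no spread between libraries.

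P450s are heme enzymes that insert an oxygen atom into their substrate. Most sit in the membrane of the endoplasmic reticulum and take electrons from P450 oxidoreductase (Por), while a few sit in the mitochondrion and take them from ferredoxin (Fdx1). In the adult liver the family oxidises drugs and other foreign compounds and makes bile acids, and other members make or clear sterols, steroid hormones, retinoic acid, vitamin D and signalling fatty acids. The liver at this stage is also the main site of blood formation, and holds blood cell precursors beside the hepatocyte precursors.

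What the family shares is a loop that carries the cysteine bound to the heme iron. Searched in frame over 10 codons in the GENCODE M21 coding sequences (GRCm38), its codon pattern (phenylalanine, glycine, cysteine and glycine codons at fixed places) was found in 90 of 95 members. A single coding transcript was searched per member, and the pattern was not met in those of Cyp20a1, Cyp8b1, Cyp2s1, Cyp2b10 and Cyp3a59. For Cyp2b10 the searched transcript was not the one that led in the 2 libraries, so its leading transcript may still hold the pattern. The stretch is shown for 8 members that the results below turn on, because it is where genes as far apart as Cyp51 and Cyp2c68 remain comparable. Each is 30 bases, 5′ to 3′ on the coding strand, and the capitals mark the cysteine codon.
Cyp2c68: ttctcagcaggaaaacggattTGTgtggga
Cyp2d26: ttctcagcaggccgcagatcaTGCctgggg
Cyp51: tttggagctgggcgtcatcgtTGTgttgga
Cyp2c23: ttctccctcgggaagcgatccTGTgttggc
Cyp3a16: tttgggaatggacccaggaacTGCattggc
Cyp4f15: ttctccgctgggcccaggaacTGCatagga
Cyp27a1: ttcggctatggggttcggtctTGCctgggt
Cyp7a1: tttggatcaggagctacaataTGTcctgga

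The stretch lies on the minus strand in Cyp2c68 (chr19:39689234-39689253 and chr19:39699261-39699270), Cyp2d26 (chr15:82790336-82790355 and chr15:82790456-82790465), Cyp51 (chr5:4083284-4083303 and chr5:4086460-4086469), Cyp2c23 (chr19:44005603-44005622 and chr19:44007024-44007033), Cyp3a16 (chr5:145440441-145440470) and Cyp7a1 (chr4:6268386-6268415). It lies on the plus strand in Cyp4f15 (chr17:32702398-32702414 and chr17:32702789-32702801) and Cyp27a1 (chr1:74737320-74737349). Where a pair of intervals is given, an intron splits the loop. The 90 loops held 75 different sequences, with TGC as the cysteine codon in 53 of them and TGT in 37. Among the 10 members of highest level, coding sequences were between 60% and 82.6% identical over their aligned bases.

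Replicate 1 held 102720920 estimated counts on genes and replicate 2 held 65640933, so a count of 0 still allows up to 0.0292 and 0.0457 CPM, counts per 1e+06 (3 counts of the total, counting error only). The tissue label held: all 10 hepatocyte markers and all 10 erythroid markers reached 1 TPM (a transcript level scaled for length and depth) in both libraries. The hepatocyte markers summed to 26750.5 TPM in replicate 1 and 21780.2 TPM in replicate 2, and the erythroid markers to 204960 and 156278 TPM. Of 12 markers of the mature hepatocyte, 5 reached 1 TPM, and Mup3 and Mup20 were at 0 in both libraries. None of 7 kidney markers reached 1 TPM, of 5 lung markers only Foxj1 did, and of 8 stomach and gut markers Fabp2 and Lgals4 did. In whole tissue, fewer cells of a type and less RNA per cell cannot be told apart, and this holds for every level below.

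The family was sparsely represented. A member was taken as detected when it had at least 1 TPM in both libraries, and 19 of 95 members (20%) were, against 10633 of 21474 protein-coding genes (49.5%). Another 53 members had counts but stayed below 1 TPM in at least 1 library, and 23 members (24.2%) had 0 counts in both, against 4238 protein-coding genes at 0 (19.7%). Globin, mitochondrial and spike-in rows took up 54.6% of the TPM of replicate 1, against 61.5% for replicate 2. The TPM left to all other genes was therefore unequal, and differences in TPM between the libraries, with their SD, include this. The 95 genes together summed to 175.3 TPM in replicate 1 and 150.5 TPM in replicate 2 (162.9 ± 17.6 TPM, SD, n = 2). Their share of all counts on genes was 0.0410% for replicate 1 and 0.0395% for replicate 2, with 95% Wilson intervals of 0.0406% to 0.0414% and 0.0390% to 0.03997%. Most of that came from few genes: Cyp2c68, Cyp2d26, Cyp51 and Cyp2d10, the 4 members over 10 TPM in both libraries, gave 62.7% of the summed level in replicate 1 and 59.4% in replicate 2.

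**Figure D1:**
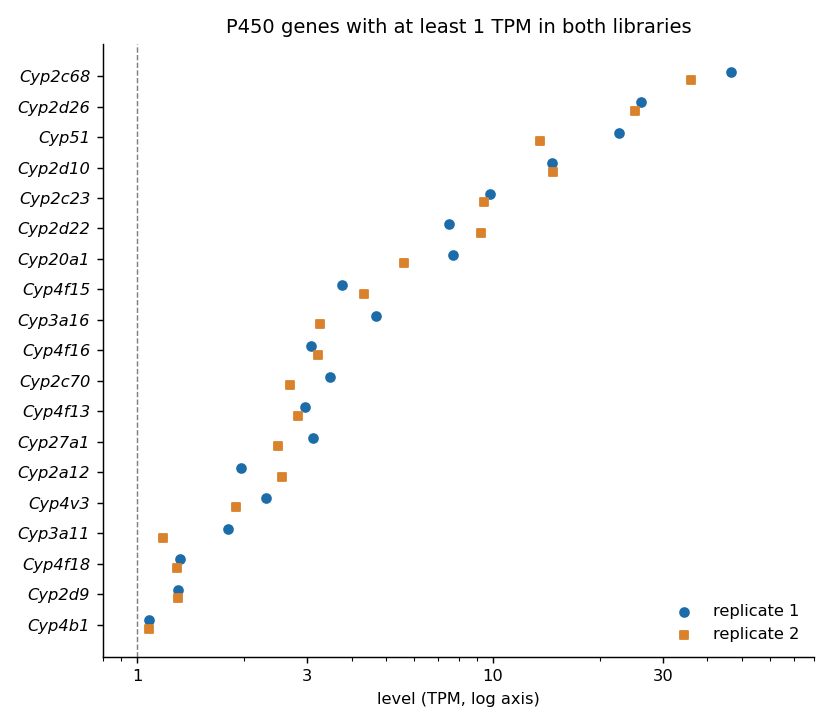
Level of each of the 19 detected P450 genes in TPM on a log axis, with a circle for replicate 1 and a square for replicate 2; the dashed line marks 1 TPM. Cyp2c68 leads with 46.63 and 36.05 TPM, and Cyp4b1 lies closest to the line at 1.08 TPM in both libraries.

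Detected members fell in 10 of 40 subfamilies. Of the subfamilies with several members, Cyp2d had 4 of 8 genes detected, Cyp4f had 4 of 9, Cyp2c had 3 of 15, Cyp3a had 2 of 7 and Cyp2a had 1 of 4. No gene of Cyp2b (5 members), Cyp2j (8 members), Cyp4a (5 members), Cyp1a (2 members) or Cyp11b (2 members) was detected. The remaining detected genes, Cyp51, Cyp20a1, Cyp27a1, Cyp4b1 and Cyp4v3, are the only members of their subfamilies under the rule used. The subfamilies wholly at 0 were Cyp19a, Cyp24a and Cyp2t, each a single gene. By summed level, the Cyp2c genes gave 61.04 TPM in replicate 1 and 49.07 TPM in replicate 2, and the Cyp2d genes gave 49.61 and 50.61 TPM. The order of these sums therefore differed between the libraries.

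**Figure D2:**
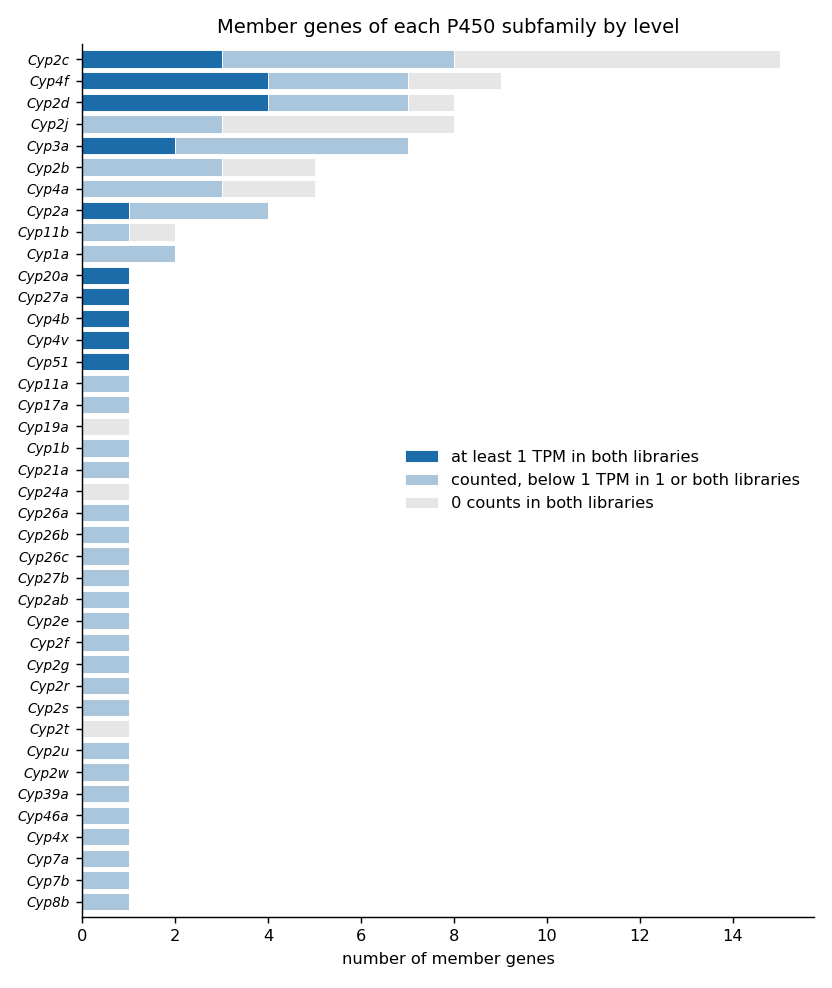
Number of member genes in each of the 40 P450 subfamilies, divided into genes with at least 1 TPM in both libraries, genes with counts but below 1 TPM in 1 or both, and genes at 0 counts in both. Cyp2c is the largest subfamily with 15 genes, 7 of them at 0, and Cyp2j has 8 genes of which 5 are at 0.

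Sterol and bile acid enzymes were led by Cyp51, the lanosterol demethylase of cholesterol synthesis. It had 22.65 TPM in replicate 1 and 13.51 TPM in replicate 2, and with 10627 and 4848 estimated counts it had the most counts of the family in replicate 1. Its neighbours in the same pathway, from a list of partner genes, were also present: Msmo1, a sterol oxidase that acts after it, had 54.91 and 50.82 TPM, and Lss, the lanosterol synthase that acts before it, had 29.39 and 25.25 TPM. Of the 18 bile acid and sterol partners listed, 15 were detected.

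Of the 6 P450s listed here for bile acid and oxysterol routes other than Cyp51, 1 was detected. Cyp2c70 and Cyp2a12, which also act on bile acids, were detected too, but are grouped by family under foreign compounds below. Cyp27a1, the mitochondrial enzyme that oxidises the sterol side chain, had 3.12 TPM in replicate 1 and 2.49 TPM in replicate 2. Cyp39a1, which acts on an oxysterol, lay just outside the threshold at 1.67 TPM in replicate 1 and 0.85 TPM in replicate 2. Cyp8b1, the sterol hydroxylase needed for cholic acid, had 0.71 and 0.66 TPM. Cyp7b1, another oxysterol hydroxylase, had 0.09 and 0.06 TPM, and Cyp46a1, best known from brain, had 0.20 and 0.22 TPM. Each of these 4 genes stayed below Cyp27a1 in both libraries.

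Cyp7a1, the rate-limiting enzyme of the classic bile acid route, had 63 estimated counts in replicate 1 and 45 in replicate 2, but 0.47 and 0.12 TPM. The gap came from its transcripts. The coding transcript of 4172 nucleotides had 62 and 45 counts and 0.12 TPM in both libraries. In replicate 1 a single count was assigned to a non-coding transcript of 228 nucleotides, which then stood for 0.34 TPM, or 73.4% of the gene. The gene-level TPM of Cyp7a1 in replicate 1 thus rests on 1 count. The same kind of shift occurred in Cyp4a31, where 7.44 counts on a transcript of 533 nucleotides gave 0.33 of its 0.34 TPM in replicate 2, against 0.06 TPM for the gene in replicate 1. Of the other enzymes of the route, Hsd3b7, which acts after Cyp7a1, had 43.87 and 43.97 TPM, Acox2, a peroxisomal oxidase of the side chain, had 17.28 and 21.52 TPM, and Amacr, a racemase of the same steps, had 9.27 and 8.05 TPM. Slc27a5, which activates bile acids for conjugation, had 6.33 and 8.54 TPM, and Baat, which conjugates them, had 0.44 and 0.39 TPM. Abcb11, the canalicular export pump, had 3.35 and 1.84 TPM.

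None of the 6 P450s of steroid hormone synthesis reached 1 TPM. Cyp11a1, which cleaves the cholesterol side chain, was the highest at 0.40 TPM in replicate 1 and 0.32 TPM in replicate 2 (92 and 58 counts). Cyp17a1, the hydroxylase on the way to sex steroids and cortisol, had 0.05 and 0.06 TPM. Cyp21a1 had 1 and 4 counts and Cyp11b2, the aldosterone synthase, had 3 in each, while Cyp11b1 and the aromatase gene Cyp19a1 were at 0 in both. Of 8 adrenal and gonad markers, 4 reached 1 TPM in both libraries, and the list summed to 116.7 and 115.2 TPM. Scarb1 (48.06 and 53.59 TPM) and Mrap (43.26 and 43.55 TPM) made up most of that sum, and Hsd3b1 (12.08 and 8.70 TPM) and Fdx1 (10.95 and 7.63 TPM) were the other 2 detected. Sult2a8 had 1.71 and 0.88 TPM, Star had 0.34 and 0.37 TPM, Mc2r had 0.33 and 0.44 TPM, and Nr5a1, the factor that turns on steroid synthesis genes, had 1 count in each library. Whether cells of that kind contributed to the Cyp11a1 counts was not tested.

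Enzymes that clear retinoic acid were counted but not detected. Cyp26a1 had 0.13 and 0.14 TPM in replicate 1 and replicate 2, Cyp26b1 had 0.05 TPM in both, and Cyp26c1 had 0.02 and 0.03 TPM. The listed partners spanned a wide range: Rbp4, the plasma retinol carrier, had 767.1 TPM in replicate 1 and 683.1 TPM in replicate 2, while Aldh1a2, which makes retinoic acid in embryos, had 0.56 and 0.46 TPM. For vitamin D, Cyp2r1, the hydroxylase of the liver step, had 0.21 and 0.35 TPM from 31 and 25 counts. Cyp27b1, the activating enzyme of the kidney, had 0.06 and 0.09 TPM, and Cyp24a1, which degrades the hormone, was at 0. In Cyp2r1 the coding transcript of 1627 nucleotides held 69.1% of the gene in replicate 1 and 17.7% in replicate 2, so the libraries differed in which transcript led.

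The enzymes of fatty acids and eicosanoids were taken as family 4 with Cyp2j and Cyp2u1. This group held 26 members, of which 6 were detected, all from family 4. Cyp2c23, an arachidonic acid epoxygenase, was also detected, but is grouped by family under foreign compounds below. Cyp4f15 had 3.75 TPM in replicate 1 and 4.35 TPM in replicate 2, Cyp4f16 had 3.08 and 3.23 TPM, and Cyp4f13 had 2.96 and 2.82 TPM. Cyp4v3, the counterpart of a human fatty acid hydroxylase known from an eye disease, had 2.30 and 1.89 TPM, and Cyp4b1, best known from lung, had 1.08 TPM in both. Cyp4f18, a leukotriene hydroxylase known from mouse neutrophils, had 1.32 and 1.29 TPM. Of 11 granulocyte and mast cell markers, 9 were detected, and their levels summed to 1462 TPM in replicate 1 and 1195 TPM in replicate 2. What those cells contributed to Cyp4f18 was not tested.

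The Cyp4a genes, fatty acid hydroxylases induced in adult liver, were low or at 0. Cyp4a10 had 0 and 7 counts in replicate 1 and replicate 2, Cyp4a14 had 1 and 9, and Cyp4a29 and Cyp4a32 had none in either. Ppara, the receptor that drives these genes in adult mouse liver, had 488 and 280 counts, or 4.25 and 1.30 TPM. Of the 8 Cyp2j genes, which make epoxides of arachidonic acid, Cyp2j6 was highest with 0.60 and 0.36 TPM, and 5 were at 0. Cyp2j9 had 0.08 and 0.09 TPM, and Cyp2j5, known from kidney, had 0.05 and 0.08 TPM. Cyp2u1, a fatty acid hydroxylase, had 0.09 and 0.11 TPM, and Cyp4x1 had 0.06 and 0.05 TPM. In the Cyp4f subfamily, Cyp4f17 had 0.32 and 0.34 TPM, Cyp4f39, which serves the skin barrier, had 0.18 and 0.14 TPM, and Cyp4f14 had 0 and 3 counts.

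The 49 members grouped by family under foreign compounds made up 69.5% of the summed P450 level in replicate 1 and 72.8% in replicate 2. They split into 10 detected, 28 low and 11 at 0. The grouping goes by family, so it includes Cyp2c23, Cyp2c70 and Cyp2a12, whose other substrates are named below. Cyp2c68 was the highest P450 gene in both libraries: it reached 46.63 TPM in replicate 1 and 36.05 TPM in replicate 2 (8895 and 5069 estimated counts). Cyp2d26 followed with 26.05 and 25.06 TPM, and Cyp2d10 had 14.61 and 14.77 TPM. Cyp2c23, an arachidonic acid epoxygenase, had 9.77 and 9.43 TPM, and Cyp2d22, taken as the mouse gene closest in function to human CYP2D6, had 7.5 and 9.23 TPM.

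The Cyp3a genes were lower. Cyp3a16, known as a fetal form, had 4.68 TPM in replicate 1 and 3.26 TPM in replicate 2, and Cyp3a11, the main form of adult mouse liver, had 1.80 and 1.18 TPM. Cyp3a16 was thus above Cyp3a11 in both libraries. Cyp2c70, which makes the muricholic acids of the mouse, had 3.47 and 2.68 TPM. Cyp2a12, a bile acid and testosterone hydroxylase, had 1.96 and 2.55 TPM, and Cyp2d9, a testosterone hydroxylase of male adult liver, had 1.30 TPM in both. Just below the threshold, Cyp3a13 had 0.83 and 0.82 TPM.

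Of the forms best known from adult or induced liver, Cyp3a11 passed the threshold, and the following did not. Cyp2e1, the ethanol-oxidising form, had 13 counts in replicate 1 and 18 in replicate 2, or 0.06 and 0.12 TPM. Cyp1a2 had 0.11 and 0.06 TPM and Cyp1a1 had 0.13 and 0.15 TPM, while their receptor Ahr had 1.40 and 1.29 TPM. Cyp2b10, the marker gene of the receptor Nr1i3, had 10 and 9 counts, with Nr1i3 at 0.99 and 1.04 TPM. Cyp2c29, an abundant form of adult mouse liver, had 0 counts in both libraries. Nr1i2, the receptor that induces Cyp3a11, had 3.91 and 3.55 TPM.

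The other low members of these families had small values throughout. Cyp2c37 had 0.30 and 0.21 TPM and Cyp2c55 had 0.03 and 0.04 TPM. In the Cyp2a subfamily, Cyp2a22 had 0.43 TPM in both libraries, Cyp2a5, the coumarin hydroxylase, had 0.20 and 0.31 TPM, and Cyp2a4 had 0.10 TPM in both. Cyp2b13 led the Cyp2b genes with 0.16 and 0.13 TPM, ahead of Cyp2b9 with 0.08 and 0.04 TPM. Cyp1b1, an Ahr target outside the liver, had 0.10 and 0.08 TPM, Cyp2d40 had 0.06 and 0.15 TPM, and Cyp2w1 had 0.03 and 0.06 TPM. At most 2 counts in either library fell on each of Cyp2d12, Cyp3a25, Cyp3a44, Cyp3a57, Cyp3a59, Cyp2ab1 and Cyp2g1.

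The remaining detected gene was Cyp20a1, an orphan member without an assigned substrate. It had 7.72 TPM in replicate 1 and 5.63 TPM in replicate 2, and its coding transcript of 2223 nucleotides held 86.5% and 93.8% of the gene.

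P450 genes of the mouse lie in tandem clusters, and the levels of neighbours differed widely. With gaps of up to 1 Mb, 64 members fell in 7 clusters of at least 4 genes. In the chromosome 19 cluster, 2 of 14 genes were detected and 7 were at 0, while in the chromosome 15 cluster 4 of 8 genes were detected and 1 was at 0. In the chromosome 4 cluster of Cyp2j genes, 5 of 8 were at 0. The chromosome 7 cluster, with 13 genes of subfamilies Cyp2a, Cyp2b, Cyp2f, Cyp2g, Cyp2s and Cyp2t, had Cyp2a12 as its only detected gene.

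**Figure D3:**
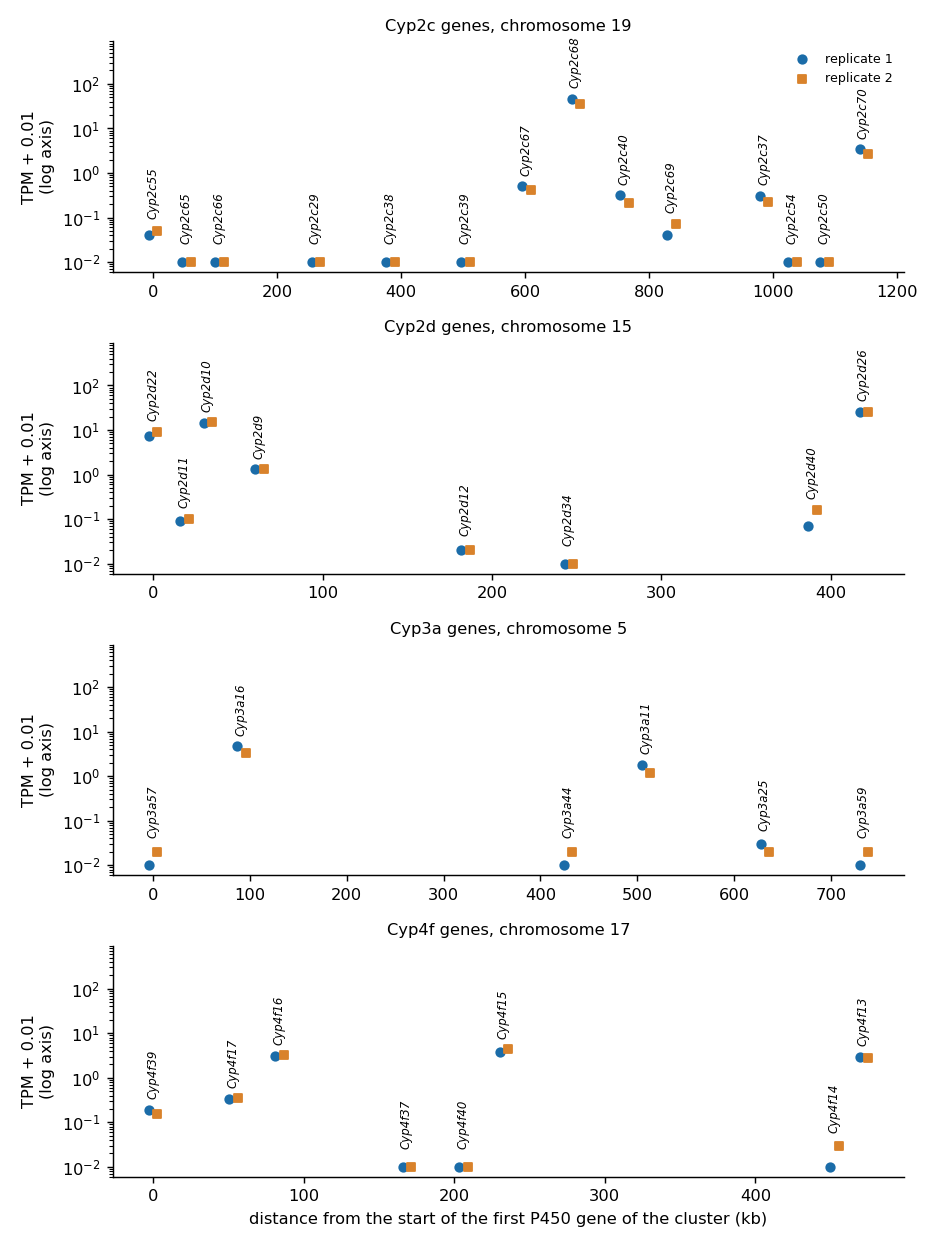
Level of each P450 gene in 4 tandem clusters, as TPM plus 0.01 on a log axis, against the distance in kb from the start of the first P450 gene of the cluster; circles are replicate 1 and squares replicate 2. In the top panel Cyp2c68 at 46.63 and 36.05 TPM stands between Cyp2c67 at 0.50 and 0.40 TPM and Cyp2c40 at 0.31 and 0.20 TPM.

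The Cyp2c cluster held a wide contrast around Cyp2c68 (GRCm38 chr19:39688834-39741054, minus strand). Its coding sequence was 98.1% identical to that of Cyp2c40 (28 mismatches in 1473 aligned bases), 97.1% to Cyp2c67 and 96.5% to Cyp2c69. Cyp2c40 had 0.31 TPM in replicate 1 and 0.20 TPM in replicate 2, Cyp2c67 had 0.50 and 0.40 TPM, and Cyp2c69 had 0.03 and 0.06 TPM. By deposited TPM, the level of Cyp2c68 was thus 93.3 times that of Cyp2c67 in replicate 1 and 90.1 times in replicate 2. Of the 1624 stretches of 1 read length in the Cyp2c68 transcript, 19.6% also occurred in another gene, most often Cyp2c40, and of those of Cyp2c40 34.0% did. Counts among these 4 genes are therefore estimates that the authors' software divided, and their split is uncertain.

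The bases before the RefSeq starts of these 4 genes (GRCm38.p6) are printed because they too are nearly the same. The window was 250 bases, cut short where GENCODE places a transcript inside it, and the capitals mark the letters CAAAGTCCA, a form of the site bound by the liver receptor Hnf4a. All are on the minus strand and read 5′ to 3′ toward the gene: Cyp2c68 from chr19:39741102-39741351, Cyp2c40 from chr19:39812815-39813064, Cyp2c69 from chr19:39886800-39887019 and Cyp2c67 from chr19:39649052-39649292.
Cyp2c68: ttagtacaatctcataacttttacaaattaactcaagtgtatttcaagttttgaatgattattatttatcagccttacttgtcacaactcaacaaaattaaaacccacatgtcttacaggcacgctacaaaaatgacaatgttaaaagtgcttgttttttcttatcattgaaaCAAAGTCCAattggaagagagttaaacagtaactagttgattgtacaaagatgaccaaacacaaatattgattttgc
Cyp2c40: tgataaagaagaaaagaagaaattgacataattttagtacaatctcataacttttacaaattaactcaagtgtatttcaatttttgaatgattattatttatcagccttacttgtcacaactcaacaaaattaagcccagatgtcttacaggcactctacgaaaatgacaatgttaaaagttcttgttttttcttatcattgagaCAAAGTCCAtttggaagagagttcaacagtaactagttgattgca
Cyp2c69: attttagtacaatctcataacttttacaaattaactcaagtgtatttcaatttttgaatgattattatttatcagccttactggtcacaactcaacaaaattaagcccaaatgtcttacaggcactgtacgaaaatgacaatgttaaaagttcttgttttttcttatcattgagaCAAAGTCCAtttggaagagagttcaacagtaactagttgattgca
Cyp2c67: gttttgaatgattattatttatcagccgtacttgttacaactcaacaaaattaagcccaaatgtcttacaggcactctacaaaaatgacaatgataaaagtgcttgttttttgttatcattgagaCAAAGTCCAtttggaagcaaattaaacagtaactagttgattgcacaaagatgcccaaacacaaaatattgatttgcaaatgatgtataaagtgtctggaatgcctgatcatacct

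Over the full windows, Cyp2c68 was 95.4% identical to Cyp2c40 (10 mismatches in 217 aligned bases), 94.3% to Cyp2c69 (14 in 246) and 93.1% to Cyp2c67 (14 in 202). All 4 windows held the marked letters, so genes at very different levels share them. Counted from the RefSeq starts, the letters began 77 bases before Cyp2c68, 45 before Cyp2c40, 75 before Cyp2c69 and 125 before Cyp2c67. GENCODE places the starts of Cyp2c68, Cyp2c69 and Cyp2c67 at other bases, so these distances depend on the annotation.

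Searched on both strands in the windows of 74 members that RefSeq lists, CAAAGTCCA was present in 9 (12.2%), against 0.381% of the windows of all 27025 listed genes. The 9 genes were Cyp2c68, Cyp3a16, Cyp2c70, Cyp3a11, Cyp8b1, Cyp2c67, Cyp2c40, Cyp2c69 and Cyp2c65. They comprised 4 of 17 detected members with a window and 1 of 18 members at 0. Of the 9, 4 are near-identical Cyp2c genes, and Cyp3a16 and Cyp3a11 were 92.8% identical in coding sequence. The 9 are therefore not separate observations. The letters TATAAA of a TATA box, at any place in the window, were present in 35.1% of the member windows and in 13.0% of all windows. CCAAT was in 41.9% of the member windows against 34.5%, TTGCNNAA (a C/EBP site) in 20.3% against 9.55%, and CG in 89.2% against 91.7%. TCACNCCAC (a sterol element) was in none of the 74, against 1.04% of all windows. Hnf4a itself had 22.03 TPM in replicate 1 and 22.98 TPM in replicate 2.

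Another pair of this kind was Cyp3a16 and Cyp3a44, on the minus strand of chromosome 5 at chr5:145469724-145469973 and chr5:145805875-145806124. Their windows were 95.9% identical (10 mismatches in 246 aligned bases).
Cyp3a16: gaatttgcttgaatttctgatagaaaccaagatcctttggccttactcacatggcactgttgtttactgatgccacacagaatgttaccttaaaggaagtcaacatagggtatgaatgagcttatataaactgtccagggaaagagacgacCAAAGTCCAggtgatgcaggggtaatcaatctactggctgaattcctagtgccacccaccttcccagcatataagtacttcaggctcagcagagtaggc
Cyp3a44: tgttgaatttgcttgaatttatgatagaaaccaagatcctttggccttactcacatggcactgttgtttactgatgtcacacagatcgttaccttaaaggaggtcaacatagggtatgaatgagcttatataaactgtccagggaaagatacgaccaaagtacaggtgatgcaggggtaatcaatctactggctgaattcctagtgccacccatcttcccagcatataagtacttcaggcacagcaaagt

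Cyp3a16 had 896 counts in replicate 1, against 460 in replicate 2, and Cyp3a44 had 1 and 2. The marked letters are in the Cyp3a16 window, and at the aligned place the Cyp3a44 window differs by C7A, counted from 1 at the 5′ end of the 9 letters, with the Cyp3a16 base first. Their coding sequences were 92.4% identical, and 1 of the 1630 read-length stretches in Cyp3a16 occurred in another gene. A further pair was Cyp4f16 and Cyp4f37, with windows 97.8% identical over 183 aligned bases and coding sequences 96.1% identical. Cyp4f16 had 578 and 393 counts, and Cyp4f37 had 0 in both libraries. Cyp2d10 and Cyp2d11 had windows 85.5% identical and coding sequences 94.7% identical, with 14.61 and 14.77 TPM for Cyp2d10 and 0.08 and 0.09 TPM for Cyp2d11.

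Across the family, 32 of 246 pairs within a subfamily were over 90% identical in coding sequence, and they involved 33 members, 7 of them detected (Cyp2c68, Cyp2d10, Cyp3a16, Cyp4f16, Cyp2a12, Cyp3a11 and Cyp2d9). Over 10% of the read-length stretches were shared with another gene in 11 members, of which Cyp2c68 and Cyp2d10 were detected. By contrast 47 members shared none, among them Cyp51, Cyp2c23, Cyp4f15, Cyp2c70, Cyp4f13, Cyp27a1 and Cyp4f18 of the detected genes.

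The 23 members at 0 were most numerous in Cyp2c (Cyp2c29, Cyp2c38, Cyp2c39, Cyp2c50, Cyp2c54, Cyp2c65 and Cyp2c66) and Cyp2j (Cyp2j7, Cyp2j8, Cyp2j11, Cyp2j12 and Cyp2j13). The others were Cyp2b19, Cyp2b23, Cyp2d34, Cyp2t4, Cyp4a29, Cyp4a32, Cyp4f37, Cyp4f40, Cyp11b1, Cyp19a1 and Cyp24a1. A limit of 3 counts put these genes below 0.0071 to 0.0258 TPM in replicate 1 and below 0.0093 to 0.0365 TPM in replicate 2, depending on their length. Of all members, 67 had counts in both libraries and 5 in 1 library only.

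The deposited mm9 tables gave a second reading of the family in this series, with other gene models (Ensembl version 65) and a level per length and depth (RPKM). Of 95 members 92 were listed, all but Cyp2d10, Cyp2d12 and Cyp2d34. Of the 22 listed members at 0 in mm10, 20 were also at 0 in mm9, and the other 2, Cyp2c39 and Cyp4f37, had at most 0.0125 RPKM. The highest members were Cyp2c68 with 9.28 RPKM, Cyp51 with 6.57 RPKM and Cyp2d26 with 5.6 RPKM as means of the deposited pair of values. Cyp2c40 had 0.612 RPKM there, above Cyp4f13 with 0.535 RPKM, although in mm10 it had 0.31 and 0.20 TPM against 2.96 and 2.82 TPM for Cyp4f13. Cyp2c67 had 0.217 RPKM and Cyp2c69 had 0.0937 RPKM. In mm9, Cyp2c68 thus stood less far above Cyp2c40, Cyp2c67 and Cyp2c69 than by mm10 TPM.

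Spliced reads over annotated introns, from the deposited mm9 junction table of the whole series, were found for 70 of the 91 members with an intron there. Among the 18 detected members listed, 10 had reads over every annotated intron. Cyp2c68 had reads over all 8 of its introns, from 358 to 4163 reads each, a wide spread within 1 transcript. For Cyp2c40 the best covered intron had 93 reads, for Cyp2c67 46 and for Cyp2c69 48. Cyp4f37, at 0 counts in mm10, had 65 reads over 5 of its 12 introns, and Cyp2c50 had 2 reads over 1 of 9. Cyp4f37 shares 7.26% of its read-length stretches with Cyp4f16, and whether its junction reads came from that gene was not tested.

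In most detected members 1 transcript led. Of the 19, 9 had a single transcript in the deposited tables, and in the other 10 the same coding transcript led in both libraries. It held under 50% of the gene in Cyp4f16 (37.2% and 37.3%) and Cyp27a1 (43.8% and 48.2%). In Cyp27a1 the rest was assigned to a pair of retained-intron transcripts, of which the one of 645 nucleotides had 1.02 TPM in replicate 1 and 1.04 TPM in replicate 2.

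Differences between the libraries were tested gene by gene with a two-sided exact conditional binomial test of the rounded counts, scaled by edgeR's TMM library sizes, with Benjamini-Hochberg adjustment over all genes with at least 10 counts. A gene was called if it differed at least 2-fold and its adjusted p was under 0.05. With 1 library on each side the test compares these libraries, not conditions. Of the 60 members tested 3 were called (5.0%), against 8.02% of all 17906 genes tested. None of the 19 detected members was called. The median log2 ratio of replicate 1 over replicate 2 was -0.16 for members and 0.0024 for all genes. Scaling by the spike-in counts instead moved the median of all genes to -0.65 and that of the members to -0.81, and called 14 of the 60 members against 21.2% of all genes. All 14 were lower in replicate 1 (19.7% of all genes were called lower), and 3 of them were detected members (Cyp2a12, Cyp2d22 and Cyp4f15).

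The 3 members called with TMM sizes were all below 1 TPM. With edgeR's exact test, which adds a spread estimated from both libraries, none was called (2 had an unadjusted p under 0.05). Of all genes 1.36% were called, or 2.84% with the spread of housekeeping genes. That spread comes from the same 2 libraries taken as 1 group, so it already holds differences between them, which lowers the number of calls. Cyp2s1, an extrahepatic form, had 70 counts in replicate 1, against 116 in replicate 2, or 0.22 and 0.48 TPM, a log2 ratio of -1.37 (95% interval -1.83 to -0.94, adjusted p = 7e-10, exact test). The stomach and gut markers, of which 2 of 8 reached 1 TPM, summed to 9.81 TPM in replicate 1 and 8.04 TPM in replicate 2, with Gkn1 at 0 in both. Within that list the 2 detected genes ran in opposite directions. Fabp2 had 7.21 TPM in replicate 1 and 3.77 TPM in replicate 2, and Lgals4 had 2.17 and 3.30 TPM. Cdx1 had 2 counts in replicate 1, against 26 in replicate 2, and Cdx2 had 2, against 16. Their part in the Cyp2s1 result was not tested. Cyp2f2, known from the airway lining, had 43 and 13 counts, or 0.21 and 0.08 TPM, a log2 ratio of 1.04 (0.16 to 2.10, adjusted p = 0.033, exact test). With spike-in sizes its log2 ratio was 0.39 and it was not called. Of 5 lung markers 1 reached 1 TPM, the list summed to 1.11 and 1.47 TPM, and Sftpc, Scgb1a1 and Sftpb were at 0 in both libraries. Cyp4a14 had 1 and 9 counts, a log2 ratio of -3.31 with a counting interval of -9.27 to -0.97 (adjusted p = 0.0053, exact test). By direction, 1 member was higher in replicate 1 (4.43% of all genes were) and 2 were lower (3.59% of all genes were).

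Among the detected members, log2 ratios ran from -0.58 for Cyp2a12 to 0.48 for Cyp51, with 9 higher and 10 lower in replicate 1, although all 19 were lower with spike-in sizes. Cyp2c68 had a log2 ratio of 0.16 (0.11 to 0.21), and Cyp2d26 one of -0.15 (-0.21 to -0.08). Deposited TPM and scaled counts can differ in direction: by TPM, Cyp2d26 and Cyp2c23 were slightly higher in replicate 1, and by scaled counts both were lower there. Sizes this small passed the adjusted p alone in 11 of 19 detected members, since the test counts only sampling noise. Over all members 17 of 60 (28.3%) passed it, against 60.2% of all genes tested. Cyp39a1, just outside the detection threshold, had a log2 ratio of 0.73 (0.51 to 0.95) and stayed under 2-fold.

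**Figure D4:**
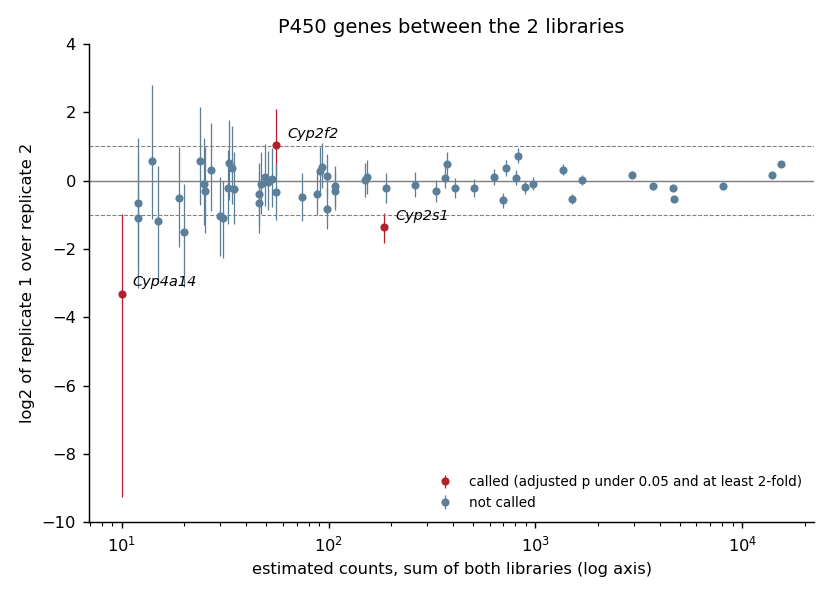
Log2 ratio of replicate 1 over replicate 2 with its 95% counting interval, against the summed estimated counts on a log axis, for the 60 P450 genes tested; dashed lines mark 2-fold. The 3 called genes, Cyp2f2 at 1.04, Cyp2s1 at -1.37 and Cyp4a14 at -3.31, have few counts; Cyp51, with the most counts, lies at 0.48, and all detected genes lie between -0.58 and 0.48.

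The 8 electron donors found in the tables were all detected (Fdx2, also listed, was not found). Por, the usual electron donor of microsomal P450s, had 21.52 TPM in replicate 1 and 26.27 TPM in replicate 2. The summed level of the 89 microsomal members was 171.7 and 147.6 TPM. The ratio of Por to that sum was 0.125 in replicate 1 and 0.178 in replicate 2 (0.152 ± 0.037, SD, n = 2). Cyb5a, cytochrome b5, which serves some P450s as a second donor, had 329.3 TPM in replicate 1 and 179.3 TPM in replicate 2. By scaled counts its log2 ratio was 0.40 (0.37 to 0.44). Which cells of the tissue held Cyb5a was not tested. All 6 genes listed as donors of microsomal P450s were detected and none was called, against 8.02% of all genes tested. For the mitochondrion, Fdx1 had 10.95 and 7.63 TPM against a sum of 3.60 and 2.92 TPM over the 6 mitochondrial P450s, which gives ratios of 3.04 and 2.61.

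The genes of heme supply were detected without exception. Alas1, the synthase of the general heme pool, had 15.87 TPM in replicate 1 and 15.86 TPM in replicate 2, the lowest of the 9 genes listed. None of the 9 was called, against 8.02% of all genes tested. These enzymes also serve the red cell precursors of this tissue. Pgrmc1, a membrane protein that binds P450s, had 46.61 and 35.14 TPM.

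The counts of called genes in the lists that follow stand against the 8.02% called over all genes. Of 17 listed receptors and factors of liver P450 genes, 12 were detected and 1 was called. The called gene was Cebpb, with 2680 counts in replicate 1 and 637 in replicate 2 (16.44 and 5.36 TPM), a log2 ratio of 1.42 (1.30 to 1.55, adjusted p = 6.2e-131, exact test), and it was not called with spike-in sizes. Cebpa, its relative, had 14.26 and 17.84 TPM. Dbp, a circadian regulator of several P450 genes in adult liver, had 0.80 and 0.82 TPM, and Esr1 had 0.05 and 0.07 TPM. Of 7 xenobiotic receptors and partners 5 were detected and none was called. Of 8 steroid synthesis partners 4 were detected, and Hsd3b2, a gene with close paralogs, was called higher in replicate 1 from 49 estimated counts in replicate 1 against 15. The 15 genes of retinoic acid and vitamin D included 9 detected and none called, and none of the 18 bile acid and sterol partners was called. Of the P450s with another symbol, Tbxas1, the thromboxane synthase of platelets and macrophages, had 4.29 and 5.09 TPM, and Ptgis, the prostacyclin synthase, had 0.35 and 0.39 TPM.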

How the data were processed

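The members and gene lists were chosen with earlier results of these data known. For each library the authors deposited gene and transcript tables with an expected count, TPM and FPKM, and transcript tables also with the percent of each gene given to a transcript, per the file headers. The submitters' labels give mm10 as assembly, annotation M4 is named in a deposited note, and the aligner is not given in the sources used here. The mm9 tables hold RPKM of 2 replicates, per the file headers, which no source ties to a library, so their mean was used, and the authors also deposited a read count per splice junction with an irreproducible discovery rate.

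Of 43346 gene rows, 42462 matched a symbol in GENCODE M21, which also gave the protein-coding class. Spike-in rows (2.84% and 1.82% of counts in replicate 1 and replicate 2), a phiX row (0.0764% and 0.0857%) and 26248 rows with numeric names were left out of library sizes. Levels are the deposited TPM. Expected counts were rounded for the test, which used TMM sizes (edgeR 4.0.16, R 4.3.3) over genes with at least 10 counts and was tested on simulated data; DESeq2 1.42.0 gave an alternative. Values are given for every detected member, for subfamily leaders with a count and for called members, and other genes come from fixed lists (Fdx2 was not found), of which some are not reported here; the near-identical pairs and printed sequences were chosen after their values were seen. The 2 libraries differed beyond sampling noise and were kept as 2. Members were matched to the mm9 tables by gene ID. Coding sequence stood in for protein sequence, from GENCODE M21 while the tables use M4. Promoter windows come from RefSeq (GRCm38.p6), the first listed per gene, and pairs were aligned globally (Biopython 1.88), with identity taken over aligned bases without gaps. Intervals cover counting error only.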

Additional observations from a re-analysis of the deposited data

How the results depend on the processing

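Of 53 recomputed values, 33 stayed within the spread or within 1.5 times and 20 moved. Some of the 33 could not have moved. With 2 libraries, leaving 1 out always keeps the summed level and the Por ratio within their SD. FPKM scales all TPM of a library alike, so it could not change the Por ratio within a library or the rank of Cyp2c68. The count of 19 detected members became 39 at 0.1 TPM, 7 at 5 TPM and 7 in mm9 RPKM, and ran from 19 to 20 with 1 library left out. The mm9 values were cut at 1 RPKM, which is not the same level as 1 TPM, and they lack Cyp2d10. At 5 TPM, 4 subfamilies held a detected member. The summed level of 162.9 TPM became 215.8 in FPKM, 388.4 after rescaling TPM without globin, mitochondrial and spike-in rows, 38.3 in mm9 RPKM and 121.6 TPM without Cyp2c68. Called members numbered 14 with spike-in sizes (all lower in replicate 1), 5 at 1.5-fold, 17 by adjusted p alone and 0 with either edgeR exact test (2 members at an unadjusted p under 0.05 in each). For all genes these settings gave 3795, 3046, 10788, and 244 or 509 calls (dispersion of all tested or of housekeeping genes), and a minimum of 50 counts gave 792. With spike-in sizes 271 genes were called higher and 3524 lower in replicate 1, against 794 and 642 with TMM sizes, and of the detected members 0 were higher and 19 lower, against 9 and 10. A minimum of 50 counts left Cyp2f2 and Cyp2s1 called. Junction support fell to 42 members at an IDR under 0.1. Cyp2c68 ranked 1 in FPKM, mm9 RPKM and with either library left out. The test counts sampling noise only, and 35 members had too few counts for it. No paired analysis was possible because there is 1 group.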
